A study of Mus musculus with 36 samples.

Results

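The 10 genes described here encode positive acute phase proteins, plasma proteins whose synthesis by the liver rises during inflammation: Saa1, Saa2, Saa3, Orm1, Orm2, Lcn2, Hp, Hpx, Itih3 and Apcs. They were found by symbol among the 21955 symbols of the count tables, and all 10 were present and passed the filter on low counts, as did 13436 genes in all. Total RNA had been sequenced from C57BL/6JN mouse liver at 6 time points of regeneration, labelled before, 48, 72, 96, 120 and 240, in young mice (4 months) and old mice (18 months). The labels give neither a unit for the time points nor the way in which regeneration was started. Age and time point together gave 12 groups with 3 libraries in each, which the series' design text calls biological replicates. No allele, diet or agent is named in the labels, and the groups shared strain, tissue and extraction protocol. The submitters entered old mice as the treated group, and spike-in mix 1 had been added to young and mix 2 to old samples, so the spike-in mix went with age.

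The acute phase response is the change in plasma protein production that follows injury or infection. Cytokines of the interleukin 6 and interleukin 1 families act on hepatocytes, where STAT3, C/EBP and NF-kB factors switch on the genes of the positive acute phase proteins while genes such as albumin are turned down. Liver regeneration starts with the same cytokine signals, and acute phase genes are known to be induced early in it.

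The promoter stretches that carry a C/EBP match are shown first, since C/EBP factors are textbook regulators of this group. RefSeq's promoter table for GRCm38.p6 listed 8 of the 10 genes (Hp and Orm1 were not matched). Both strands of the 250 bases upstream of each start were searched for TTGCNNAA (C/EBP), TTCNNNGAA (STAT) and, for NF-kB, GGG followed after any 5 bases by CC. The C/EBP letters were present in 6 of 8 genes, against 9.56% of all 32851 promoters of that length. Saa3 is among the 6 although its RNA did not follow that of the other members. Itih3 and Apcs, which moved closely together, had no C/EBP match. A part of these letters in the RNA changes was not tested. A STAT match occurred in 1 of 8 (Apcs), against 7.02% of all promoters, and an NF-kB match in 3 of 8 (Saa1, Saa2 and Lcn2), against 45.8%. In no gene did matches of different motifs overlap. A match is a stretch of letters and not a measured binding site. The windows below are 30 bases of the strand of the gene, 5′ to 3′, with the C/EBP match in capitals. They lie at chr7:46743144-46743173 (minus strand, Saa1), chr7:46751639-46751668 (plus, Saa2), chr7:46715757-46715786 (minus, Saa3), chr4:63362318-63362347 (plus, Orm2), chr2:32387937-32387966 (minus, Lcn2) and chr7:105600298-105600327 (minus, Hpx).
Saa1: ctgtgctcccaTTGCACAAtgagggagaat
Saa2: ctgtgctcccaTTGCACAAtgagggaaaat
Saa3: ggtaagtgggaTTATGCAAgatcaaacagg
Orm2: gagagaacattTTGCGCAAgacatttccca
Lcn2: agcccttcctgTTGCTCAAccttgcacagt
Hpx: tggctggaaatTTGCTGAAgggggtagggg
The windows of Saa1 and Saa2 came from 250-base stretches that were 95.6% identical. Saa3 carries its match in the opposite orientation (TTATGCAA). For Orm2, which rose by a larger factor than its neighbour Orm1, the 250 bases before the start (chr4:63362199-63362448, plus strand) are given whole.
Orm2 upstream: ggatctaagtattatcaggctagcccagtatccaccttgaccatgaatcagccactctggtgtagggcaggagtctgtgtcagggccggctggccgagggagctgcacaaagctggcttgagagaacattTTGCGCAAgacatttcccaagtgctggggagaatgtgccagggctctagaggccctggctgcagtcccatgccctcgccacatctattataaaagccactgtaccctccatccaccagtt

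Library totals ran from 2328233 to 6034446 counts (median 4439170), so that 3 counts corresponded to 0.49 to 1.29 CPM (counts scaled to the TMM-adjusted library total). Replicates spread most in the old 48 group, with a biological coefficient of variation of 40.6%, against 19.4% to 27.2% in the other 11 groups. In 12 libraries, 1 in each group, 4 Y-linked genes summed to 177 to 321 CPM, against at most 0.212 CPM in the other 24. The labels do not name this split, and it was balanced over the comparisons. All 7 hepatocyte markers were present, with a summed level of 37500 to 65400 CPM. In such bulk tissue, fewer cells of a type and less RNA per cell cannot be told apart.

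Acute phase RNA was at its highest at 48 in both ages. In young mice the highest group mean was at 48 for 10 of 10 genes, and in old mice for 7 of 10 (Orm2 and Hpx were highest at 120 and Saa3 before). At 48 in young mice, 9 of 10 were called higher than before by edgeR's quasi-likelihood test at an adjusted p under 0.05, where 12.2% of all tested genes were. At 72, 8 of 10 were higher (9.21% of all genes), at 96 and at 120 only Orm2 and Lcn2 were (0.662% and 0.216%), and at 240 none (0.0521%). The 0 at 240 stood beside 2 genes at an unadjusted p under 0.05 (Orm2 and Lcn2) and 1 call by DESeq2 (Orm2). No member was called lower at any time point in either age, where 9.79%, 8.21%, 0.737%, 0.365% and 0.194% of all genes were lower in young mice in order of time. All libraries lay above all those before for the same 9 genes (all but Saa3) at 48, 72, 96 and 120, as for 20.6%, 18%, 13.9% and 11.7% of all genes. At 240 this held for Hpx and Itih3 (6.14% of all genes). The median log2 fold change of the 10 genes was 2.07 at 48, 1.55 at 72, 0.89 at 96, 1.15 at 120 and 0.36 at 240, against medians between -0.01 and 0.01 over all genes.

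In old mice the rise at 48 took in the same number of genes in the fit of all libraries, and the later calls were spread differently. At 48, 9 of 10 were called higher than before (12.1% of all genes). The count was 3 at 72 (Orm2, Lcn2 and Itih3, with 6.54% of all genes higher), 2 at 96 (Orm2 and Lcn2, 3.76%), 4 at 120 (Orm2, Lcn2, Hpx and Apcs, 1.85%) and 0 at 240 (0.0149%). At 240 the unadjusted p was under 0.05 for 1 gene, Saa3, which was lower, and DESeq2 called 0. Of all genes, 12%, 5.81%, 3.07%, 2.02% and 0.141% were called lower in order of time. The old libraries lay above all those before for 9 genes at 48 (14.9% of all genes), 6 at 72 (15.4%), 3 at 96 (13%), 4 at 120 (10.7%) and 1 at 240 (Orm2, 6.31%). Medians over the 10 genes were 1.82, 0.85, 1.20, 1.45 and 0.07 in order of time, against -0.02 to 0.01 over all genes. All later time points of an age were compared with the same 3 libraries before, so these counts are not independent of each other. When only the groups compared were fitted, the 9 calls of old mice at 48 fell to 3. Saa1, Orm1, Hp, Hpx, Itih3 and Apcs were then no longer called. The 9 calls of young mice at 48 were kept under every alternative.

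**Figure D1:**
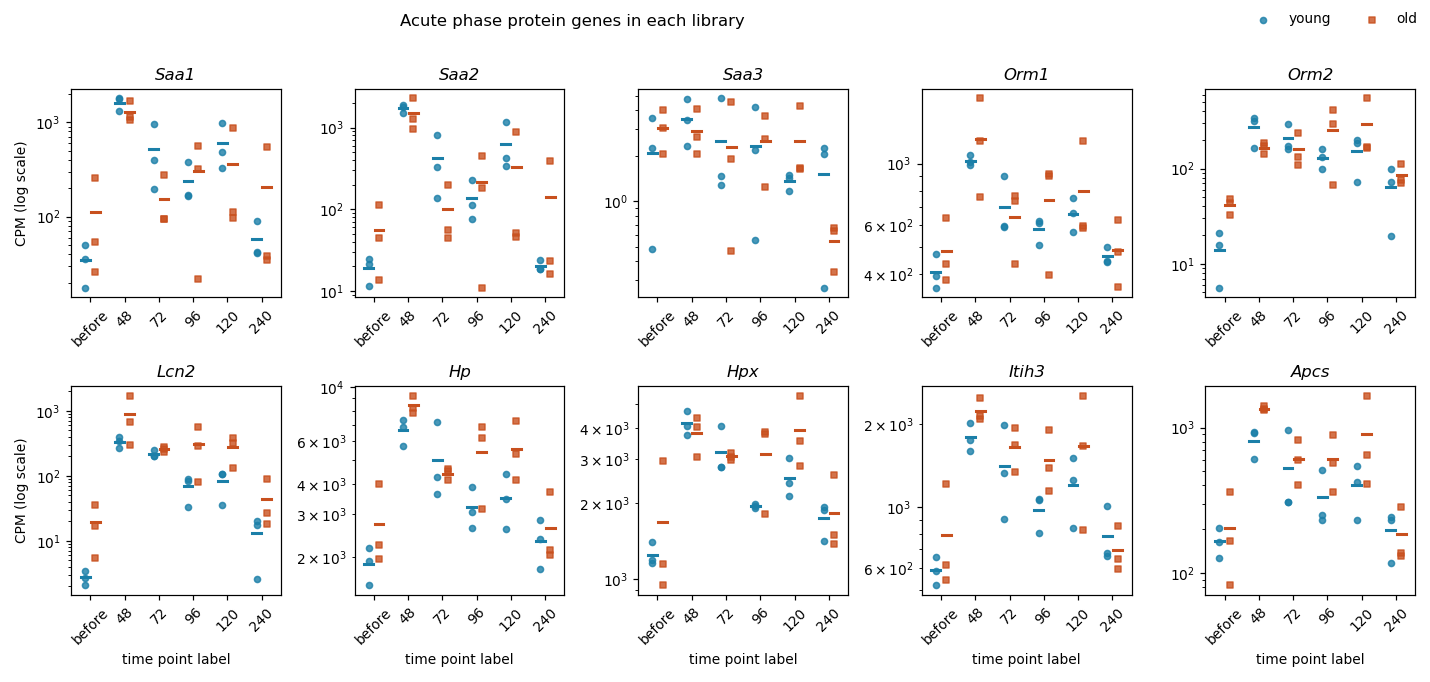
CPM (log axis) of each of the 10 genes in the 36 libraries by time point label, with young libraries as circles, old libraries as squares and bars at the group means. Saa1, Saa2, Orm1, Hp, Itih3, Apcs and Lcn2 have their highest mean at 48 in both ages, and Saa3 stays between 0.268 and 4.78 CPM.

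The serum amyloid A genes lie together on chromosome 7 (GRCm38, GENCODE M21 annotation). Saa1 (ENSMUSG00000074115.5, chr7:46740497-46742980, minus strand) and Saa2 (ENSMUSG00000057465.5, chr7:46751790-46754313, plus strand) encode the apolipoproteins that join high-density lipoprotein during inflammation. Saa1 stood at 49.9, 17.7 and 35.6 CPM in the young libraries before (replicates 1 to 3, as in all lists of values that follow) and at 1790, 1756 and 1304 CPM at 48. It was still at 394, 197 and 955 CPM at 72, and the libraries at 96 held 382, 166 and 169.7 CPM. A second high group followed at 120 (331, 490.4 and 995 CPM) before the low values at 240 (89.6, 41.2 and 41.8 CPM). Every young library from 48 to 120 thus lay above every library before, whereas at 240 the groups overlapped. The log2 fold change was 5.55 ± 1.25 at 48 (SE, adjusted p 0.00198) and 3.90 ± 1.16 at 72 (adjusted p 0.0218). The call at 72 was lost without any 1 of the 3 young libraries before or without young 72 replicate 3 (values down to 3.12, adjusted p up to 0.085). The values at 120 (4.13 ± 1.17, adjusted p 0.113) and at 96 (2.80 ± 1.11, adjusted p 0.213) missed the threshold.

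In old mice Saa1 was 257, 53.8 and 26 CPM before, so that 1 library held far more of it than the other 2. At 48 it reached 1129, 1696 and 1056 CPM, a log2 fold change of 3.53 ± 1.13 (adjusted p 0.0251). This was the only old time point at which all its libraries exceeded all libraries before. The later old libraries were uneven. Saa1 stood at 94.8, 274 and 95.2 CPM at 72 and at 318, 21.9 and 565 CPM at 96. The libraries at 120 held 97.5, 874 and 112 CPM, and those at 240 held 551, 34.7 and 37.8 CPM. The highest library of a group exceeded the lowest by 25.8-fold at 96 and by 15.9-fold at 240. In old mice at 48 that ratio was 1.61, and over the young groups it ran from 1.37 at 48 to 4.86 at 72. None of these later changes was called, with log2 fold changes between 0.46 ± 1.03 at 72 and 1.69 ± 1.06 at 120.

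Saa2 followed Saa1 closely. Its mean rose from 19.1 ± 6.81 CPM to 1732 ± 198 CPM at 48 in young mice (SD, n = 3) and from 56.2 ± 49.9 to 1504 ± 682 CPM in old mice. The log2 fold changes were 6.50 ± 1.45 (adjusted p 0.00188) and 4.74 ± 1.33 (adjusted p 0.0116). Young mice held 329, 136 and 812 CPM at 72 (4.47 ± 1.33, adjusted p 0.0217), and old mice 44.7, 199 and 55.5 CPM, which was not called (0.83 ± 1.16). As for Saa1, the young call at 72 was lost without any 1 of the same 4 libraries (values down to 3.62, adjusted p up to 0.081). All young libraries from 48 to 120 exceeded all young libraries before, and in old mice only those at 48 did so. Replicate spread was larger for these genes than for other members, with a biological coefficient of variation of 84.4% for Saa2 and 77.2% for Saa1 against 24.7% for the typical gene.

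The Saa1 and Saa2 transcripts are 94.4% identical, and 13.2% and 13.3% of their 50-base windows are shared, so part of the split of reads between them is uncertain. Taken as deposited, Saa2 made up 36.7% ± 5.82 of the counts of the pair in young mice before and 51.9% ± 1.68 at 48 (SD, n = 3). In old mice the share was 36.5% ± 7.56 before and 52.7% ± 4.77 at 48. In young mice it was 50.1% ± 3.71 at 120 and 28.3% ± 10.2 at 240. Within each age, the 3 shares at 48 were above the 3 shares before, so the pair's counts shifted toward Saa2 as they rose.

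Saa3 (ENSMUSG00000040026.8, chr7:46711998-46715700, minus strand), the family member made in macrophages and fat cells as well, was close to the limit of detection. It had 1 to 29 counts per library and 0.484 to 3.54 CPM in young mice before, 2.33 to 4.74 at 48 and 2.04 to 4.05 CPM in old mice at 48. It was called in none of the comparisons (edgeR), with a log2 fold change of 0.74 ± 0.65 in young and -0.06 ± 0.64 in old mice at 48. The 3 old libraries at 240 (0.66, 0.341 and 0.637 CPM) lay below the 3 before (3.05, 4.02 and 2.05 CPM), as did 7.1% of all genes, and the change of -2.36 ± 0.82 had an adjusted p of 0.389. At 1 to 3 counts per library at 240, this difference rests on very few reads.

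**Figure D2:**
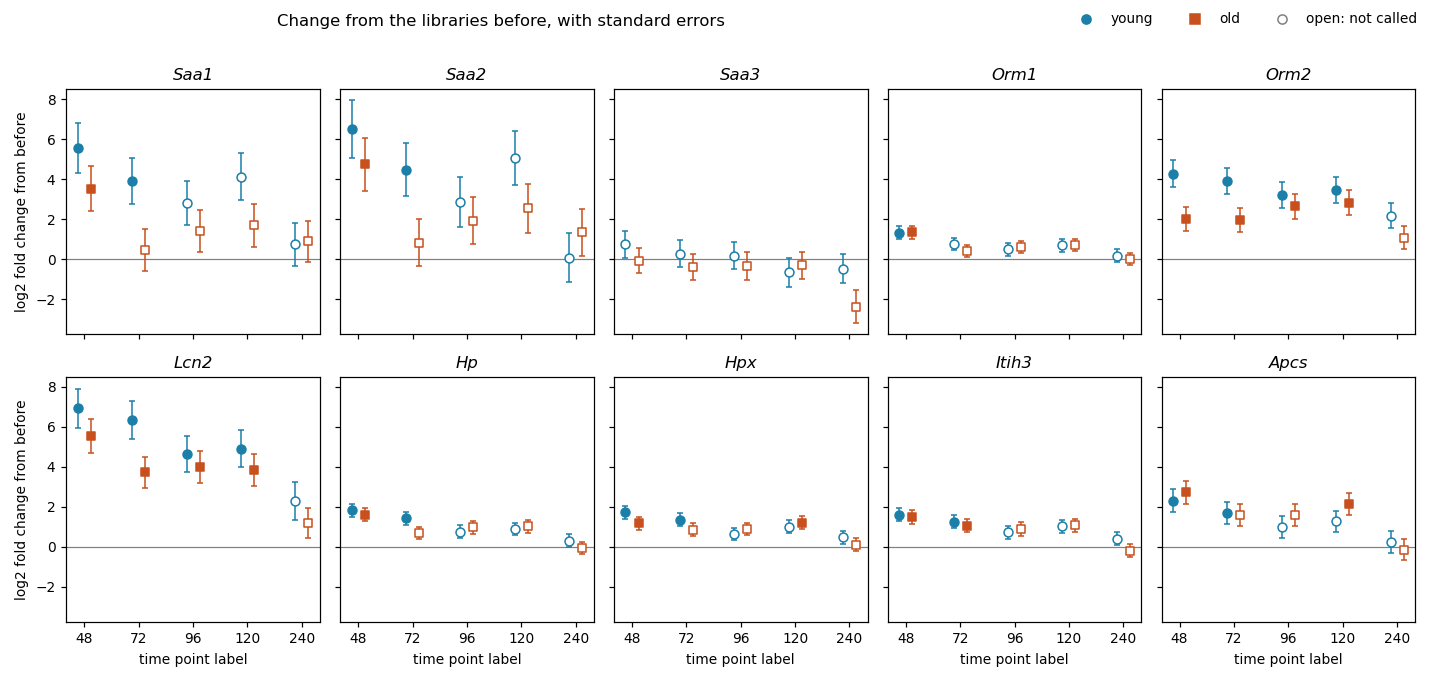
Log2 fold change of each gene from the libraries before, by time point label, with standard errors of the edgeR fit. Circles are young mice and squares old mice, filled where the adjusted p was under 0.05. The changes are largest at 48 for Saa1, Saa2 and Lcn2, and those of Saa3 lie around 0 in most comparisons.

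Orosomucoid, or alpha-1-acid glycoprotein, is a lipocalin that binds drugs and modulates immune cells. Its genes Orm1 (ENSMUSG00000039196.2, chr4:63344560-63348163, plus strand) and Orm2 (ENSMUSG00000061540.3, chr4:63362449-63365878, plus strand) are neighbours on chromosome 4. Orm1 was abundant from the start and rose about as much in both ages. It was 358, 395 and 473 CPM in young mice before and 1077, 986 and 1013 CPM at 48, a change of 1.33 ± 0.31 (adjusted p 0.00241). In old mice the corresponding values were 638, 437 and 383 and 1211, 1717 and 759 CPM, a change of 1.34 ± 0.31 (adjusted p 0.00282). It was called at no later time point in either age.

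Orm2 started low in young mice and, with Lcn2, was called higher up to 120. Young libraries held 5.62, 15.7 and 21.1 CPM before and 337, 318 and 166 CPM at 48. They stayed near that level at 72 (175, 160.4 and 294 CPM) and held 134, 99.2 and 159 CPM at 96. The level was 72.9, 200.3 and 188 CPM at 120 and 19.4, 98.5 and 72.5 CPM at 240, where the lowest library was back in the range of those before. The log2 fold changes were 4.28 ± 0.67, 3.90 ± 0.66, 3.22 ± 0.64 and 3.45 ± 0.65 from 48 to 120 (adjusted p 4.19e-05, 0.00041, 0.0108 and 0.00903), and 2.18 ± 0.63 at 240 (adjusted p 0.314). It was thus called at 4 of 5 later time points, at each of which no library overlapped those before. The calls at 96 and at 120 were lost without young before replicate 1 or 2.

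Old libraries began higher, at 47.4, 43.6 and 32.4 CPM of Orm2, above all 3 young libraries before (as for 8.04% of all genes). They held 172, 141 and 185 CPM at 48 and 109, 239 and 133 CPM at 72. Single libraries were high at 96 (292, 67.4 and 409 CPM) and at 120 (169, 546 and 164 CPM), and the level at 240 was 113, 76.3 and 71.4 CPM. Every later old library lay above the old libraries before, and the group mean was 166 ± 22.6 CPM at 48 and 293 ± 219 CPM at 120 (SD, n = 3). The changes of 2.02 ± 0.60, 1.96 ± 0.60, 2.64 ± 0.61 and 2.83 ± 0.62 from 48 to 120 were called (adjusted p 0.0166, 0.0327, 0.00996 and 0.0105). The call at 72 was lost without any 1 of the 3 old libraries before, or without old 72 replicate 2 or 3. Over all alternatives its value went down to 1.56 and its adjusted p up to 0.131. All 4 calls were lost without old before replicate 3. Those at 48 and 120 were also lost without old before replicate 2, and that at 120 without old 120 replicate 2.

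Because the Orm1 and Orm2 transcripts are 91.0% identical, with 20.4% of 50-base windows shared, a part of their reads cannot be assigned to 1 of them with certainty. As deposited, Orm2 made up 3.21% ± 1.46 of the counts of the pair in young mice before and 20.8% ± 5.81 at 48 (SD, n = 3). The share was 22.8% ± 1.66 at 72 and 18.3% ± 2.24 at 96, with 18.2% ± 6.09 at 120 and 11.6% ± 6.52 at 240. Old mice went from 7.93% ± 1.08 before to 13.2% ± 6.03 at 48 and 25.1% ± 5.33 at 120. The 3 young shares before (1.54% to 4.26%) were below the 3 old shares before (6.92% to 9.07%), so the lower starting level in young mice was seen for Orm2 relative to Orm1 as well.

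**Figure D3:**
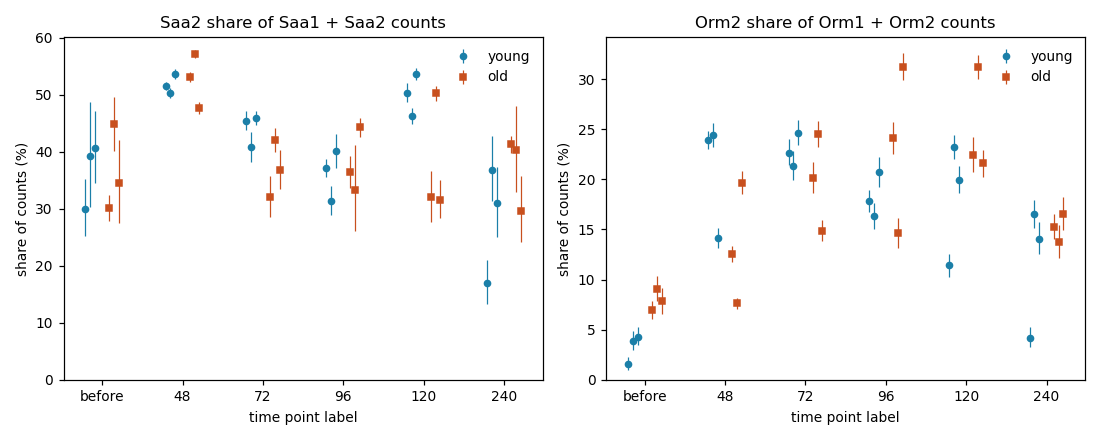
Share of Saa2 in the counts of Saa1 and Saa2 (left) and of Orm2 in the counts of Orm1 and Orm2 (right), in percent, for each library by time point label, with exact 95% binomial intervals that cover counting error only. The Orm2 share is 1.54% to 4.26% in young libraries before and 6.92% to 9.07% in old libraries before.

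Apcs (ENSMUSG00000026542.6, chr1:172893961-172895041, minus strand) encodes serum amyloid P component, the pentraxin that acts as a major acute phase protein in mice. It was 127, 165 and 203 CPM in young mice before and 605, 912 and 927 CPM at 48, a change of 2.31 ± 0.56 (adjusted p 0.0037). Old mice went from 358, 167 and 82.6 CPM to 1319, 1403 and 1336 CPM, a change of 2.74 ± 0.57 (adjusted p 0.00124). The 3 old libraries at 48 were close to each other and lay above the 3 young ones. At 72 the change was called in young mice (1.68 ± 0.55, adjusted p 0.0358), but not without any 1 of the 3 young libraries before or without young 72 replicate 3 (values down to 0.92, adjusted p up to 0.258). It was also called at 120 in old mice (2.16 ± 0.56, adjusted p 0.0287), where the libraries were 651, 1651 and 406 CPM. Apcs was no longer called at 120 without any 1 of old before replicates 2 and 3 and old 120 replicates 1 and 2.

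Haptoglobin binds free haemoglobin and hemopexin binds free haem, so that both limit iron loss and oxidative damage after red cell lysis. Hp (ENSMUSG00000031722.10, chr8:109575128-109579172, minus strand) was the most abundant member. It rose from 2166, 1917 and 1531 CPM to 5745, 7349 and 6876 CPM at 48 in young mice (1.83 ± 0.32, adjusted p 9.19e-05). In old mice it rose from 4001, 2237 and 1961 to 8244, 9199 and 7792 CPM (1.62 ± 0.32, adjusted p 0.000555). All 3 old libraries at 48 exceeded all young libraries at 48. At 72 Hp was called in young mice (1.43 ± 0.31, adjusted p 0.00242) and not in old mice (0.69 ± 0.31, adjusted p 0.143). Its old values at 96 (0.98 ± 0.31) and 120 (1.03 ± 0.31) came close to the threshold, with adjusted p 0.0517 and 0.0556.

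Hpx (ENSMUSG00000030895.9, chr7:105591613-105600137, minus strand) moved by similar amounts. Young libraries held 1160 to 1398 CPM before and 3758 to 4693 CPM at 48, a change of 1.74 ± 0.33 (adjusted p 0.000265). Old libraries held 2961, 1141 and 944 CPM before and 4050, 3074 and 4377 CPM at 48, a change of 1.19 ± 0.33 (adjusted p 0.00921). The lowest old library at 48 was only slightly above the highest old library before. In old mice the highest mean came at 120, where the libraries were 3569, 5379 and 2828 CPM and the change of 1.22 ± 0.33 was called (adjusted p 0.0328), but not without any 1 of old before replicates 2 and 3 and old 120 replicates 1 and 2.

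Itih3 (ENSMUSG00000006522.17, chr14:30908572-30923760, minus strand) encodes a heavy chain of the inter-alpha-trypsin inhibitors, which stabilise hyaluronan in the matrix. It was 519 to 655 CPM in young mice before and 1602 to 2027 CPM at 48 (1.61 ± 0.33, adjusted p 0.000631). In old mice it was 1214, 613 and 541 CPM before and 2139, 2494 and 2083 CPM at 48 (1.50 ± 0.33, adjusted p 0.00171). The rise was still called at 72 in both ages, with 1.26 ± 0.33 in young (adjusted p 0.0087) and 1.06 ± 0.33 in old libraries (adjusted p 0.0312). In young mice it was no longer called without young 72 replicate 3, and in old mice not without old before replicate 2, old before replicate 3, old 72 replicate 1 or old 72 replicate 2.

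Lcn2 (ENSMUSG00000026822.14, chr2:32384633-32388252, minus strand) encodes lipocalin 2, which withholds iron from bacteria by binding their siderophores and is made by hepatocytes during the acute phase and by neutrophils. In both ages it had the largest fitted fold change of the members at 48. Young mice held 2.08, 3.48 and 2.66 CPM before (10 to 14 counts) and 348, 269 and 390.3 CPM at 48, so the mean was 122-fold higher. The libraries at 72 held 252, 200.5 and 204 CPM, and those at 96 held 83.2, 33.6 and 89.3 CPM. Lcn2 was at 35.5, 107 and 105 CPM at 120 and at 2.54, 17.5 and 19.8 CPM at 240. The log2 fold changes from 48 to 120 were 6.93 ± 0.97, 6.32 ± 0.95, 4.64 ± 0.91 and 4.90 ± 0.92 (adjusted p 1.17e-05, 0.000187, 0.00994 and 0.00894). The calls at 96 and at 120 were lost without any 1 of the 3 young libraries before (adjusted p up to 0.0577 and 0.0626). At 240, 2 of 3 young libraries were still above all those before, and the change of 2.29 ± 0.93 was not called (adjusted p 0.828).

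Old mice already had 35.7, 16.8 and 5.48 CPM of Lcn2 before, all above the young libraries. They reached 684, 1694 and 296 CPM at 48, with 1 library far above the other 2, and held 230.5, 275 and 258 CPM at 72. Later libraries were 566, 80.8 and 289 CPM at 96, 324, 388 and 132 at 120 and 88.6, 18.4 and 26.8 at 240. From 48 to 120 no old library overlapped the old libraries before. The changes of 5.53 ± 0.85, 3.72 ± 0.79, 4.01 ± 0.80 and 3.86 ± 0.80 were called (adjusted p 9.29e-05, 0.0031, 0.00391 and 0.00697). The call at 120 was lost without old before replicate 3.

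Old mice had more Lcn2 RNA than young mice over the course as a whole, and none of the other 9 genes differed beyond the threshold. Averaged over the 6 time points, the log2 fold change of Lcn2 in old against young mice was 1.69 ± 0.31 (adjusted p 0.00138, 95% interval 1.05 to 2.33), with the fitted difference above 0 at 6 of 6 time points. It was the only member called in this comparison, in which 3.39% of all genes were called higher, 2.59% lower and 5.98% in either direction. At single time points, 0 of 10 genes were called by edgeR or by DESeq2. Of all genes, 0.0595% were called in either direction before and 11.2% at 48. None were called at 72 or at 120 (0%), with 0.171% called at 96 and 0.0149% at 240. An unadjusted p under 0.05 was reached by 2 members before, 3 at 96, 3 at 120 and 2 at 240, and by 0 at 48 and at 72. At 48 the median difference of the members was 0.07, against 0.02 over all genes, and with 10 genes a count of 0 is near the share of all genes called.

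**Figure D4:**
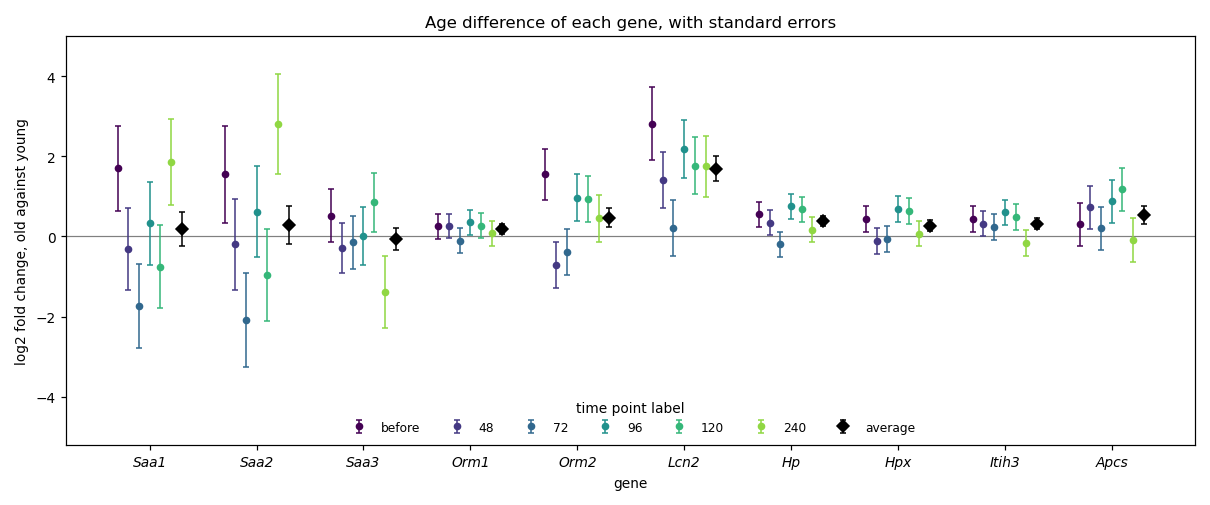
Log2 fold change of old against young mice for each gene at each time point label and averaged over the 6 (diamonds), with standard errors of the edgeR fit. For Lcn2 all 7 values are above 0 and the average is 1.69, and for every other member the values lie on both sides of 0.

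The log2 difference in Lcn2 was 2.81 ± 0.91 before and 0.22 ± 0.70 at 72. It was 1.41 ± 0.71 at 48 and 2.18 ± 0.73 at 96, followed by 1.77 ± 0.72 at 120 and 1.75 ± 0.77 at 240, with adjusted p between 0.169 at 96 and 1 at 72. Single libraries moved these values: the difference was 2.01 before without old before replicate 1, 0.53 at 48 without old 48 replicate 2, 1.43 at 96 without old 96 replicate 1, and 0.76 at 240 without old 240 replicate 1. Old and young libraries did not overlap before (8.04% of all genes) and at 120 (7.81%). The split by Y-linked transcripts went with the size of this difference: on log2(CPM + 1), the average over the time points was 2.55 among the libraries with those transcripts (1 per group) and 0.93 among the others (2 per group), above 0 at 6 of 6 time points in both. The same order was seen for every other member except Saa3 (-0.22 against 0.17), such as Orm2 (1.16 against 0.1), Apcs (0.69 against 0.4) and Itih3 (0.36 against 0.26). It was thus not particular to Lcn2. The part of that split in the Lcn2 result and in the other age differences was not tested. Lcn2 remained called in each of the 44 alternatives tried, with values between 1.52 and 1.77 and adjusted p between 2.61e-06 and 0.00349. Among them was a fit with a term for the Y-linked transcripts. That term is the same for both ages and the split is balanced over the groups. The fit therefore cannot show whether the age difference depends on the split.

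Neutrophils also make Lcn2, and 9 of 10 neutrophil markers were in the tables. Their summed level was 3.48 to 6.03 CPM in young mice before and 8.90 to 28.9 CPM in old mice before. At 48 it was 4.93 to 11.9 CPM in young and 13.7 to 48.8 CPM in old mice. Of the 4 neutrophil markers that could be tested, S100a9 was called higher in old mice over the time points (1.70 ± 0.35, adjusted p 0.00374). Its values were 0, 0.249 and 0.242 CPM in young and 6.1, 2.9 and 0.456 CPM in old libraries before. In young mice S100a9 was also higher than before at 48 (3.39 ± 1.20, adjusted p 0.0418) and at 72 (3.67 ± 1.18, adjusted p 0.0309), with 2.94, 1.29 and 1.23 CPM at 48. The markers stood highest in old 48 replicate 2 (48.8 CPM), old 240 replicate 1 (38.1 CPM) and old before replicate 1 (28.9 CPM), which were also the highest libraries of their groups for Lcn2. The same libraries were the highest of their groups for 8, 10 and 9 of the 10 members, so this was not particular to Lcn2. The library with the highest marker sum was the highest for Lcn2 in 4 of 6 old and 2 of 6 young groups. In young mice at 48, replicate 3 had the lowest marker sum (4.93 CPM) and the most Lcn2 (390.3 CPM). Lcn2 itself was at 1694 CPM in old 48 replicate 2. Ltf was at 0 in old mice at 96 and Retnlg at 0 in young mice at 240, and the other neutrophil markers were detected in every group. The part of neutrophil RNA in the Lcn2 values was not tested.

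No other member passed the threshold. The average difference was 0.38 ± 0.12 for Hp (adjusted p 0.0672), 0.53 ± 0.22 for Apcs (adjusted p 0.159), 0.32 ± 0.13 for Itih3 (adjusted p 0.165) and 0.27 ± 0.13 for Hpx (adjusted p 0.239), each with an unadjusted p under 0.05. For Orm2 it was 0.47 ± 0.24 (adjusted p 0.273), for Orm1 0.18 ± 0.13 (adjusted p 0.447) and for Saa3 -0.07 ± 0.28 (adjusted p 0.928). The intervals of Saa1 (-0.68 to 1.05) and Saa2 (-0.68 to 1.26) are wide enough to hold differences in either direction. The median over the 10 genes was 0.30, against 0 over all genes. Hp was called as a further gene when the libraries were scaled by their total counts, with the replicate number as a block and with DESeq2. It was also called without 1 of 4 single libraries (young 72 replicate 3, old before replicate 3, old 96 replicate 2 or old 120 replicate 3).

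At single time points the age differences had both signs for every member except Lcn2. The negative values of Orm1, Hp, Hpx, Itih3 and Apcs were small, between -0.19 (Hp at 72) and -0.07 (Hpx at 72). Saa1 and Saa2 were lower in old mice by 1.74 ± 1.05 and 2.09 ± 1.18 at 72 and higher by 1.86 ± 1.07 and 2.80 ± 1.25 at 240, with adjusted p of at least 0.978 for these 4 values. At 240 the old mean of both genes was set by replicate 1, which had 551 CPM of Saa1. Orm2 was higher in old mice by 1.55 ± 0.63 before (adjusted p 0.581) with no overlap of the libraries, and lower by 0.72 ± 0.57 at 48 (adjusted p 0.473). Hp, Itih3 and Apcs were each higher in all old than in all young libraries at 48, as were 8.8% of all genes, by 0.34 ± 0.31, 0.32 ± 0.32 and 0.73 ± 0.54. None of these was called. Over the time points, old libraries lay above all young ones for 2 members before (8.04% of all genes), 3 at 48, 1 at 96 (Itih3, 9.94% of all genes) and 2 at 120 (Lcn2 and Saa3, 7.81%). The separation of Saa3 rested on few reads, 5 to 14 counts per library in old and 5 to 8 in young mice. No member was separated in this way at 72 (3.93% of all genes) or at 240 (5.34%). The opposite order, with all old libraries below the young ones, was met by 0 members at any time point. Over all genes it was met by 6.32% before, 12.8% at 48 and 4.51% at 72, and later by 10.7% (96), 8.63% (120) and 5.07% (240).

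The changes of old and young mice were compared over the 5 later time points together, as an interaction of age and time. By edgeR 0 of 10 genes were called, where 2.76% of all genes were, and 0 had an unadjusted p under 0.05. DESeq2 also called 0. The smallest unadjusted p was 0.0877 for Orm2 (adjusted p 0.449), whose rise at 48 was smaller in old mice by 2.27 ± 0.85. For Saa2 the rise at 72 was smaller in old mice by 3.65 ± 1.69 (adjusted p over all time points 0.464), and for Lcn2 by 2.60 ± 1.15 (adjusted p 0.723). Orm1 changed by nearly the same amount in both ages, with differences between -0.36 ± 0.44 and 0.10 ± 0.44.

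Much of the spread within groups was shared by the members. Without Saa3, the 36 pairs of genes had Pearson correlations of 0.71 to 0.99 over the 36 libraries (median 0.83, log2(CPM + 1)), and of 0.46 to 0.97 (median 0.68) after each group's mean was removed. With Saa3 the 9 pairs had correlations of 0.12 to 0.35. These values describe libraries that share time points and depth. Single libraries were high or low for nearly all members together. Old 120 replicate 2 and old 240 replicate 1 had the highest value of their group for 10 of 10 genes, and old before replicate 1 for 9 of 10. Old 96 replicate 2, old before replicate 3 and young 120 replicate 1 had the lowest value for 10 of 10. Libraries with Y-linked transcripts were the highest of their group, by the mean standardized level, in 2 of 6 young and 2 of 6 old groups.

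Old before replicate 1 stood apart from the other libraries of its group. It held 257 CPM of Saa1, 4001 of Hp and 2961 of Hpx, where the other 2 libraries reached at most 53.8, 2237 and 1141. Without it, 5 rather than 3 members were called at 72, 6 rather than 2 at 96 and 6 rather than 4 at 120, and 9 still at 48. Left out instead, old before replicate 3, the lowest library, gave 5 calls at 48, 1 at 72, 1 at 96 and 0 at 120. Without old before replicate 2 there were 5 at 48, 1 at 72 and 1 at 120. Saa1, Saa2, Orm2 and Hpx were the genes lost at 48 in both cases, and Saa1 was also lost at 48 without old 48 replicate 2. In young mice, leaving out 1 of the 3 libraries before gave 5 calls at 72 in each case and 0 or 1 at 96 and at 120, and leaving out young 72 replicate 3 gave 4 at 72. The fold changes themselves moved little at 96 and 120: over all alternatives, that of Lcn2 lay between 4.41 and 4.97 at 96 and between 4.67 and 5.26 at 120. The 9 calls of young mice at 48 were unaffected by leaving out any single library.

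**Figure D5:**
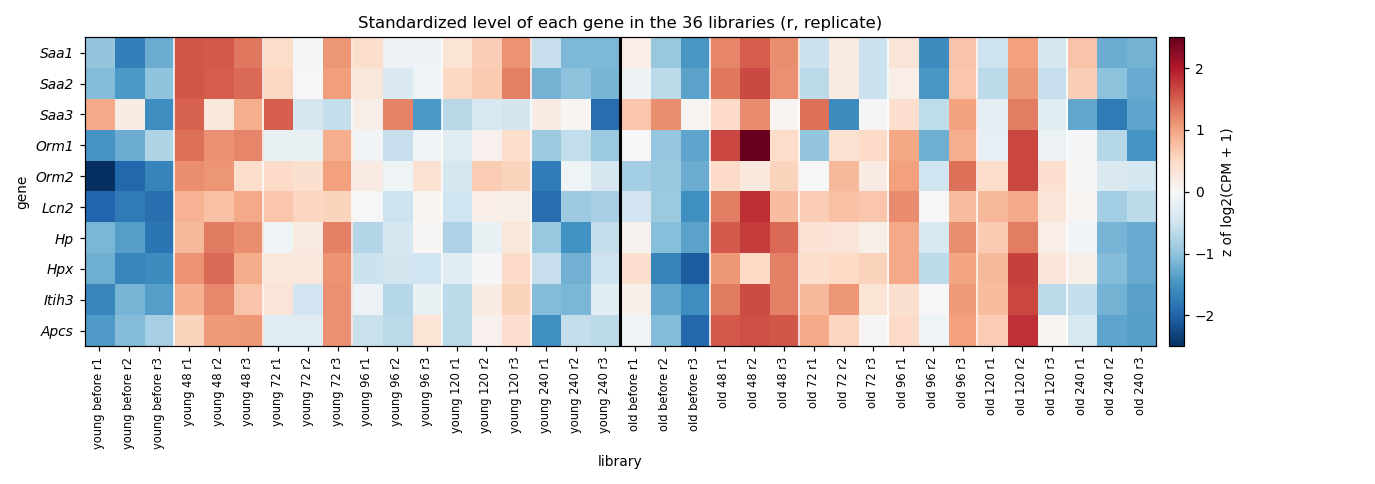
Standardized log2(CPM + 1) of each gene (rows) in the 36 libraries (columns, young left of the black line and old right of it, ordered by time point label), coloured from low (blue) to high (red). Columns tend to hold 1 colour, as in old 120 replicate 2, which is highest of its group for 10 of 10 genes, and the row of Saa3 does not follow the others.

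Set per kilobase of transcript, so that genes can be compared, the order of levels changed between before and 48. In young mice before, Hp led with a mean level of 1390 CPM per kilobase, followed by Hpx (833) and Orm1 (527), with no overlap of their libraries. Itih3 (196) and Apcs (170) overlapped, as did Saa1 (56.5) and Saa2 (31.5), and Saa2 and Orm2 (18.2). Saa3 (3.76) and Lcn2 (3.00) were lowest and overlapped. At 48 in young mice Hp still led with 4950 CPM per kilobase, and Saa2 (2860), Hpx (2790) and Saa1 (2660) followed, with overlapping libraries. Lcn2 (367) and Orm2 (353) overlapped far above Saa3 (6.32). The lengths were those of the first coding GENCODE M21 transcript of each gene (555 to 2992 bases), and no other annotated gene overlapped any member.

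Other positive acute phase genes were called higher at 48 and 72. Of 20 tested, 8 were higher in young mice at 48 (12.2% of all genes), 6 at 72 (9.21%) and 0 at 96, 120 and 240, and none was lower (edgeR, adjusted p under 0.05). At the 3 time points with 0 calls, 6, 8 and 1 had an unadjusted p under 0.05. The smallest p at 48 belonged to Serpina3n, a protease inhibitor, which went from 325, 445 and 261 CPM to 1810, 1900 and 3010 CPM (2.71 ± 0.46, adjusted p 8.89e-05). Next were Fgl1, a fibrinogen-like protein (1.77 ± 0.33, adjusted p 0.000197), and Lrg1, a leucine-rich glycoprotein (2.34 ± 0.49, adjusted p 0.000927). At 72 the leading genes were Fgl1 (1.44 ± 0.32), Steap4 (1.22 ± 0.28) and Serpina3n (1.80 ± 0.45).

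In old mice 12 of the 20 were higher at 48 (12.1% of all genes), 3 at 72 (6.54%), 3 at 96 (3.76%), 3 at 120 (1.85%) and 0 at 240, with none lower. At 240 none had an unadjusted p under 0.05. Serpina3n (2.71 ± 0.46), ceruloplasmin gene Cp (1.04 ± 0.21) and Lrg1 (2.26 ± 0.49) led at 48. The genes at 72 were Serpina3n (1.92 ± 0.45), Lbp (1.28 ± 0.35) and Steap4 (0.94 ± 0.28), those at 96 Cp (0.75 ± 0.21), Steap4 (0.93 ± 0.28) and Lbp (1.13 ± 0.35), and those at 120 Lbp (1.26 ± 0.35), Serpina3n (1.58 ± 0.44) and C3 (0.85 ± 0.24). Lbp encodes the carrier of bacterial lipopolysaccharide. The count at 48 was 7 without old 48 replicate 2 and 11 without old before replicate 1. Without old before replicate 1, Lbp was not called at 72, 96 or 120, and Lrg1 was called at all 3.

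Against young mice, 3 of the 20 were called at 48, all of them higher in old mice. Of all genes, 11.2% were called there in either direction, and with total-count scaling 530 were higher and 943 lower. Over the average of time points, 3 of the 20 were higher (3.39% of all genes called higher). At 48 these were Cd14 (4.93 ± 0.99, adjusted p 0.00189), Cp (0.80 ± 0.21, adjusted p 0.0128) and Il1rn (1.71 ± 0.55, adjusted p 0.0424). The call of Cd14, the lipopolysaccharide co-receptor, rested on 1 library: its old values at 48 were 13.8, 364 and 7.77 CPM, and without replicate 2 the difference was 1.34 ± 0.60 with an adjusted p of 0.236, while Cp and Il1rn were still called. Averaged over the time points, Cp (0.53 ± 0.09, adjusted p 0.000318), Lbp (0.70 ± 0.14, adjusted p 0.00292) and Steap4 (0.46 ± 0.11, adjusted p 0.0141) were higher. In median, the 20 genes were 0.35 higher in old mice, close to the 0.30 of the members.

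Negative acute phase genes are those whose products fall during inflammation. In young mice 0 of 8 were called at 48 (12.2% of all genes were higher and 9.79% lower), with 0 at an unadjusted p under 0.05. Their log2 fold changes ran from -1.30 to 0.40 (median -0.13), so the 0 calls do not show that these genes were unchanged. Trf, the transferrin gene, was higher in young mice at 72 (0.71 ± 0.24, adjusted p 0.035). In old mice at 48, Trf was higher (0.71 ± 0.24, adjusted p 0.0279) and 3 of 8 were lower (12% of all genes). Alb, the albumin gene, went from 10900, 8140 and 8590 CPM to 4770, 4060 and 9080 CPM (-0.63 ± 0.22, adjusted p 0.0405). Ttr, the transthyretin gene, fell by 0.93 ± 0.33 (adjusted p 0.0377). Serpina6, which encodes the glucocorticoid carrier and is named here after its values were seen, went from 205, 484 and 577 CPM to 4.45, 2.43 and 197 CPM. For all 3 of these genes old 48 replicate 3 was the highest of its group. Without old 48 replicate 2, 0 of the 8 were lower and Ahsg and Trf were higher, and without old before replicate 1 only Serpina6 was lower. Between old and young mice at 48, 0 of the 8 were called (11.2% of all genes in either direction), and 3 had an unadjusted p under 0.05.

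The cytokines that drive the response were scarcely detected. Of 8 ligand genes, Il1a and Il1b could be tested. Il6, Tnf, Osm, Lif, Il11 and Il22 did not pass the filter, with highest values in any library of 0.81, 1.54, 0.62, 2.19, 0.81 and 0.235 CPM. Il1b was lower in old mice at 48 than before, by 1.45 ± 0.51 (adjusted p 0.0372), at group means of 1.44 and 4.02 CPM. Without old 48 replicate 2 the change was as large (-1.61 ± 0.60) and missed the threshold (adjusted p 0.0621). In the other comparisons of time or age none of the ligands was called.

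All 8 receptor chains were tested. In young mice at 48, the TNF receptor gene Tnfrsf1a (0.86 ± 0.23, adjusted p 0.00687) and the oncostatin M receptor gene Osmr (1.12 ± 0.34, adjusted p 0.0179) were higher and Il1rap, a subunit of the interleukin 1 receptor, was lower (-0.93 ± 0.30, adjusted p 0.0251). Osmr was higher at 72 too (1.07 ± 0.34, adjusted p 0.0305). In old mice at 48, 4 of 8 were higher (12.1% of all genes) and 1 was lower (Il1rap, named after its values were seen, with 12% of all genes lower). The higher genes were led by Il1r1 (2.27 ± 0.43, adjusted p 0.000476), Il22ra1 (1.97 ± 0.38, adjusted p 0.000558) and Osmr (1.36 ± 0.33, adjusted p 0.00403). At 72 Il1r1 was higher and Il1rap lower. Il22ra1 was also higher in old than in young mice at 48 (1.22 ± 0.36, adjusted p 0.0275), and Il1rap was lower on average over the time points (-0.45 ± 0.12, adjusted p 0.0258). Without old 48 replicate 2, Il1r1 (1.35 ± 0.35), Il22ra1 (1.19 ± 0.32) and Osmr (1.13 ± 0.35) were still called higher at 48 than before, the first pair with smaller changes, and neither Il1rap at 48 nor the age difference of Il22ra1 was called.

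Among 12 genes of the signalling steps, Stat3, the main transcription factor of interleukin 6 signalling, was higher at 48 in young (0.76 ± 0.23, adjusted p 0.0156) and also in old animals (0.72 ± 0.23, adjusted p 0.022). Cebpa, which encodes a C/EBP factor of resting hepatocytes, was lower at 48 in young (-1.30 ± 0.35, adjusted p 0.00742) and old mice (-1.10 ± 0.35, adjusted p 0.021). Nfkbia, the gene of an NF-kB inhibitor, was lower in young mice at 48 (-0.91 ± 0.25, adjusted p 0.00931), and the kinase gene Jak1 was higher in old mice at 48 (0.56 ± 0.13, adjusted p 0.00204). At 72, Nfkb2 and Stat3 were higher in young mice and Jak2 was lower in old mice. Between the ages, Jak1 was higher in old mice at 48 (0.50 ± 0.13, adjusted p 0.00855) and Stat3 on average (0.31 ± 0.09, adjusted p 0.0401). Without old 48 replicate 2, Stat3 and Cebpa were not called in old mice at 48.

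Markers of other cells moved in some of the same comparisons. The 6 monocyte markers summed to 2280 to 4240 CPM in old mice at 48 and to 1580 to 1780 CPM in young mice at 48. Most of that sum was Fn1, which hepatocytes express as well (2400, 4220 and 2220 CPM in old mice at 48). Chil3 (3.48 ± 1.07) and Fn1 (0.84 ± 0.23) were the 2 of 4 tested monocyte markers called higher in old than in young mice at 48. Of all genes, 11.2% were called there in either direction. Another of the 4, Lyz2, was lower in old mice than before at 48 (-1.67 ± 0.38), 72 (-1.45 ± 0.38) and 96 (-1.40 ± 0.38). Of the macrophage markers, 4 of 8 were lower in old mice at 48 than before (12% of all genes). Their sums were 274, 147 and 458 CPM at 48, against 465 to 639 CPM before. Marco, of the same list, was higher than before in young mice at 48 (2.81 ± 1.01) and 72 (2.87 ± 1.01). Hepatocyte markers were lower than before at 48 in 4 of 7 in old mice (12% of all genes). In young mice at 48, 2 of 7 were lower (Cyp2e1 and Tat, 9.79% of all genes). At 72, 1 of 7 was lower in young mice (Cyp2e1, 8.21%) and 1 of 7 in old mice (Tat, 5.81%). Cyp2e1 was also lower in old than in young mice on average over the time points (-0.63 ± 0.14). Of the 4 in old mice at 48, Alb and Ttr were not called without old 48 replicate 2. The other markers were not fitted again without that library. Mesothelial markers were higher in young mice at 72 (5 of 5, with 9.21% of all genes higher). Their sums were 22.7 to 30.6 CPM, against 2.66 to 5.22 CPM before. Adipocyte markers summed to at most 32.7 CPM, and all 5 were at 0 in old mice at 96. The part of these cells in the acute phase values was not tested.

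Genes outside the group were ranked by how closely they followed the members over the 36 libraries. For the mean of the standardized members, the 5 closest genes outside the group among 13348 with a mean of at least 1 CPM were Lrg1 (Pearson r 0.94), Serpina3n (0.92), Cyb561 (0.90), Fndc3b (0.89) and Qsox1 (0.89). Saa1 and Saa2 were closest to each other (0.99), Itih3 and Apcs to each other (0.95), Hpx to Hp (0.93), Orm1 to Saa2 (0.89) and Orm2 to Lcn2 (0.87). Hp was closest to Lrg1 (0.97) and Lcn2 to Syt12 (0.93). For Saa3 the closest gene was Cdc42ep5 at 0.56, and its best match among the members ranked 632. These correlations describe 36 libraries that share the time course, and they carry no test.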

How the data were processed

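Gene-level read counts of 36 mouse liver libraries were used as deposited. Per the submitters' processing notes the tools included STAR 2.7.5b, featureCounts, Trimmomatic 0.39, SAMtools 1.10 and Picard 2.20.8 with build GRCm38 (mm10). The annotation, the strand setting and the choice of listed genes are not given in the sources used here. Per the labels' protocols, total RNA depleted of ribosomal RNA was sequenced. No spike-in rows are in the tables, and 27 symbols read as dates. Every column was assigned to its library by name.

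Genes were filtered with filterByExpr over the 12 groups, libraries were scaled with TMM, and edgeR 4.0.16 (R 4.3.3, robust quasi-likelihood fit over all 36 libraries, 1 mean per group) was run for 18 comparisons: later time points against before (by age), the 2 ages at single time points and on average, and the interaction. Benjamini-Hochberg adjustment ran over all genes of a comparison, with calls at an adjusted p under 0.05. CPM used TMM-scaled totals. The fit was tested on simulated counts with 200 changed genes: for old against young at 48 (13256 genes), 40% of 2-fold and 88% of 4-fold changes were recovered. Of 135 calls, 7 were false. All groups were simulated with the same spread per gene, so the wider spread of the real old 48 group was not part of this test. Intervals of shares are exact (Clopper-Pearson) and cover counting error only. Promoters came from RefSeq (GRCm38.p6), and gene positions and transcripts from GENCODE M21.

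All members were reported in every comparison. Of the other lists, the called genes with the 3 smallest p were named per comparison, and genes most like the members were ranked by Pearson's r. The members and lists were chosen with earlier results of these data known. Alternatives were other scalings and filters, fits restricted to the groups compared, DESeq2 1.42.0, a replicate block, a term for Y-linked transcripts and leaving out each library. A non-robust fit, and the other lists without old 48 replicate 2 or old before replicate 1, were added after seeing the data.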

Additional observations from a re-analysis of the deposited data

How the results depend on the processing

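Of 170 fold changes of the members, 40 were called. Of these, 16 were called under every alternative and 24 were lost under at least 1, and 0 of the 40 changed sign. Of the 130 others, 21 were gained under at least 1 and 43 changed sign under at least 1, among them Saa1 for old against young at 240 (1.86, range -0.66 to 2.36). The 10 interaction tests give no fold change. With total-count scaling, 2 members were called for old against young averaged over the time points, 5 in old mice at 72, 4 at 96 and 6 at 120. That scaling moved the median of all genes by up to 0.21 (young at 72), and its calls there were 2096 higher and 537 lower, so fold changes are relative to that median. With DESeq2 the counts were 2 averaged, 4 in young mice at 120, 1 at 240, and in old mice 5 at 72, 4 at 96 and 6 at 120. Fitting only the groups compared gave 5 in young mice at 96 and 6 at 120, and in old mice 3 at 48, 0 at 96 and 0 at 120. Over all genes that fit called 221 in old mice at 48, against 1626 higher and 1617 lower in the fit of all libraries. With the replicate number as a block, 2 members were called averaged (Lcn2 and Hp), 5 in old mice at 72, 4 at 96 and 6 at 120. The deviations of same-numbered libraries of an age had a mean correlation of 0.05 (90 pairs, 40 of them over 0.1). For different numbers it was -0.021 (180 pairs, 68 of them over 0.1). A mean correlation cannot show whether the numbers pair samples, and the main fit used no block. Leaving out single libraries gave 1 to 2 members averaged, 9 to 9 in young mice at 48, 4 to 8 at 72, 0 to 2 at 96 and 0 to 2 at 120. In old mice it gave 5 to 9 at 48, 1 to 5 at 72, 1 to 6 at 96 and 0 to 6 at 120, and 0 in the other comparisons. The libraries before act on every later contrast of their age. Where no cause is visible in how an alternative is built, the cause was not tested. Depth limits Saa3 (1 to 29 counts) and Lcn2 in young mice before (10 to 14 counts).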
